A study of Homo sapiens with 6 samples.

Results

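The SLIT and ROBO guidance genes were examined as 9 genes: the ligand genes SLIT1, SLIT2 and SLIT3, the receptor genes ROBO1, ROBO2, ROBO3 and ROBO4, and SRGAP1 and SRGAP3, which encode proteins that bind the tail of ROBO receptors. An accessible region (peak) was taken as belonging to one of them when its centre lay in the gene's body in the GENCODE release 44 annotation of hg38, or when it lay outside all protein-coding genes and the gene's start was the nearest protein-coding start. This rule gave 276 of the 152800 peaks in the atlas, of which 206 lay in the gene bodies and 70 between genes. All 276 passed the filter on low counts, as did 150117 of all peaks. The counts per gene were 11 for SLIT1, 39 for SLIT2, 37 for SLIT3, 68 for ROBO1, 61 for ROBO2, 8 for ROBO3, 4 for ROBO4, 31 for SRGAP1 and 17 for SRGAP3. The rule used position alone and no measured value, but the 9 genes were chosen with earlier results of these data known.

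Accessibility was measured by ATAC-seq, in which the Tn5 transposase cuts and tags open DNA, in A375, an established human melanoma cell line. The study compared A375 cells with an empty vector (EV, 3 libraries) with A375 cells overexpressing HMGB2 (HMGB2OE, 3 libraries). Both were stable lines made by lentiviral transduction and drug selection of the same parental line, and the sources used here name no separately derived line for either condition. The libraries of a condition are described by the study as technical replicates, so p-values here measure the spread between libraries and not between independently made lines. HMGB2 is a chromatin protein of the high mobility group family that binds and bends DNA.

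SLIT proteins are large secreted glycoproteins that bind ROBO receptors on the cell surface and repel growing axons and migrating cells. The SRGAP proteins carry this signal inward by switching off small GTPases that build the actin cytoskeleton. The pathway is best known from the midline of the nervous system, and it also steers neural crest cells, from which melanocytes descend, as well as blood vessels and tumour cells.

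The library totals ran from 26910189 to 45645294 reads in peaks, and the scaling factors from 0.975 to 1.02. Values per library are given as normalized read counts, the count of a peak divided by the library's scaled total and brought to the mean library, and all peaks of these genes are of one width, 502 bp. A difference is given as the log2 fold change of HMGB2OE over EV with its SE. A peak was called higher or lower at an adjusted p under 0.05 and a fold of at least 1.5 in edgeR's quasi-likelihood test over all tested peaks. The labels were checked on HMGB2 itself. Over coding exons, reads from introduced copies of HMGB2 and from the cells' own gene cannot be told apart. The exon values therefore check the labels and are not read as accessibility. The peak over its coding exons at chr4:173332680-173333181 held 50.0, 25.0 and 21.1 in EV and 102, 101 and 92.3 in HMGB2OE (log2 fold change 1.67, adjusted p = 0.000113), whereas the HMGB2 promoter peak did not pass the test (−0.01, adjusted p = 0.959). Of the melanocytic marker genes, 5 of 8 had a promoter peak (MITF, SOX10, PMEL, S100B and PAX3, at mean counts of 544 to 3768) and MLANA, TYR and DCT had none. Promoter peaks were also present for 1 of 3 leukocyte genes (CD3E), 1 of 3 endothelial genes (PECAM1, at 27.3) and 4 of 4 epithelial genes (123 to 765).

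Of the 276 peaks, 12 were called higher in HMGB2OE, which is 4.35% beside 1.87% of all tested peaks, and 4 were called lower, which is 1.45% beside 1.44% of all tested peaks. The 12 higher peaks belonged to SLIT3 (4), SRGAP1 (2), SRGAP3 (2), ROBO2 (2), SLIT2 (1) and ROBO1 (1). The 4 lower peaks belonged to ROBO1 (2) and SRGAP1 (2), and SLIT1, ROBO3 and ROBO4 had no called peak. None of the 30 promoter peaks, those within 3 kb of the start of a protein-coding transcript of the gene, was called, and the 16 calls fell among the other 246 peaks. A count of 0 in 30 peaks is near the shares of 1.87% and 1.44% called over all tested peaks. DESeq2 also called 0 promoter peaks at an adjusted p under 0.05 and a fold of at least 1.5. At an unadjusted p under 0.05 in edgeR, 2 promoter peaks were higher and 2 lower. The share of all tested peaks at that unadjusted p is not given, here or for later counts. In bulk chromatin, a change in the share of cells with an open site and a change in how open it is in each cell cannot be told apart.

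**Figure D1:**
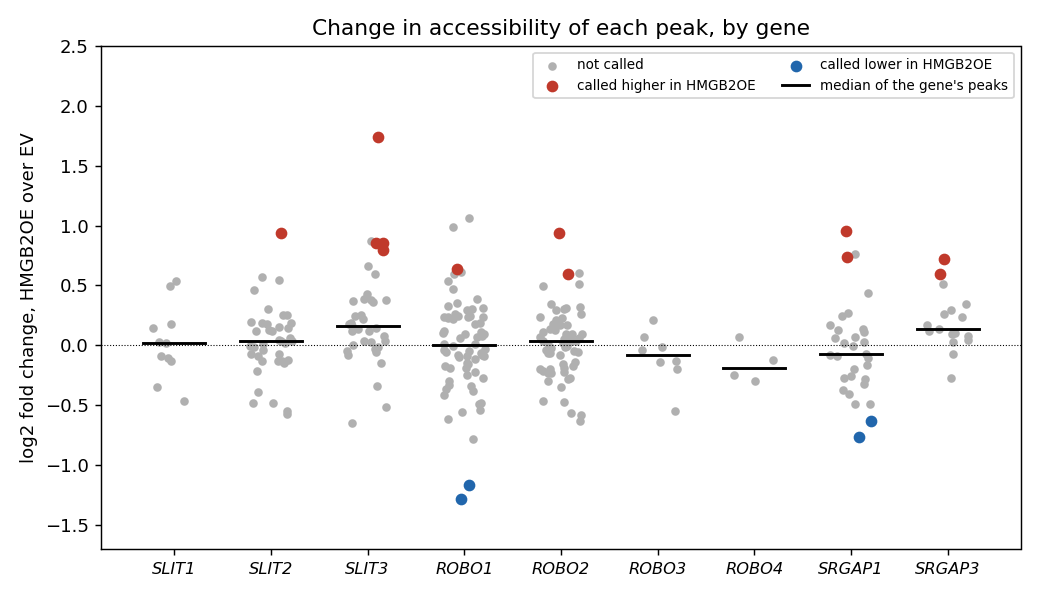
Each point is 1 of the 276 peaks, placed by gene (x axis) and by its log2 fold change of HMGB2OE over EV (y axis), with black bars at the median of each gene. The medians run from −0.19 for ROBO4 to 0.16 for SLIT3.

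With no limit on the fold, an adjusted p under 0.05 was reached by 20 peaks that rose and 9 that fell, beside 3.44% and 3.03% of all tested peaks. All 3 HMGB2OE libraries lay above all 3 EV libraries for 37 of the peaks (13.4%, beside 12.6% of all tested peaks) and below them for 27 (9.78%, beside 12.5%). Such separation held for 98.25% of all tested peaks called higher and 98.15% of those called lower. It therefore adds little to a call and is given below as a description. The median log2 fold change was 0.04 over the 276 peaks and −0.0049 over all tested peaks, with 55.8% and 49.2% of the peaks above 0. When each peak was centred on the median of its 10 Mb window the members' median was 0.0052. With a loess trend removed from each library, 11 of the peaks were called higher and 6 lower. Without HMGB2OE replicate 1 the number called higher was 7, and without EV replicate 1 the number called lower was 2. Of the 16 calls, 6 held in every fit that left out 1 library, and the same 6 held under every other setting of the fit. Nearest-start assignment changes which peaks belong to a gene and is not counted in this.

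Among the ligands, 5 of 87 peaks were called higher (5.75%, beside 1.87% of all tested peaks), with a median log2 fold change of 0.08. The count called lower was 0, which in 87 peaks is near the share of 1.44% called lower over all tested peaks. DESeq2 also called 0 lower at an adjusted p under 0.05 and a fold of at least 1.5. At an unadjusted p under 0.05 in edgeR, 6 ligand peaks were lower.

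SLIT3 encodes a secreted ligand also active in vessels and bone, and its gene spans 639 kb of chromosome 5 on the minus strand. It had 4 of the 5 called ligand peaks, all in the long intron 4 of its 36-exon canonical transcript. The strongest, chr5:169052215-169052716, lies 249 kb into the gene. It held 27.8, 29.3 and 24.6 normalized reads in the EV libraries and 85.9, 96.8 and 92.3 in the HMGB2OE libraries, so the lowest HMGB2OE library was well above the highest EV library. The means were 27.2 ± 2.39 and 91.6 ± 5.48 (SD, n = 3), a 3.34-fold difference (log2 fold change 1.74, SE 0.23, adjusted p = 2.85e-05). This was the lowest p among all peaks of the 9 genes, and leaving out any library kept the log2 fold change within 1.67 to 1.81.

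A pair of adjacent peaks lay 200.2 and 201 kb into the gene, in the same intron. The first, chr5:169100659-169101160, held 65.3, 66.2 and 70.2 in EV and 126, 129 and 93.4 in HMGB2OE (log2 fold change 0.80, SE 0.18, adjusted p = 0.00687). The second, chr5:169100091-169100592, held 66.7, 42.2 and 48.0 in EV and 103, 81.7 and 93.4 in HMGB2OE (0.85, SE 0.21, adjusted p = 0.0130). In both, the groups did not overlap. The first missed the threshold without HMGB2OE replicate 2 (0.71, adjusted p = 0.0507), and the second without EV replicate 2 (0.70, adjusted p = 0.0891) or HMGB2OE replicate 1 (0.76, adjusted p = 0.0870).

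The fourth SLIT3 peak, chr5:168885307-168885808, lies deeper in intron 4, 416 kb from the gene start. It held 51.4, 56.8 and 83.1 in EV and 123, 106 and 117 in HMGB2OE, again with no overlap (log2 fold change 0.85, SE 0.19, adjusted p = 0.00594). This call held in all fits, but the nearest protein-coding start is that of PANK3. Under nearest-start assignment the peak is not counted for SLIT3. Of the 22 tested peaks of intron 4, 17 had a log2 fold change above 0, and over the whole gene 28 of 37 did. The median was 0.16 for SLIT3 peaks, beside 0.08 for the 218 other peaks within 2 Mb. The SLIT3 promoter peak, centred 14 bp from the start, was not called. It held 233, 272 and 304 in EV and 258, 298 and 247 in HMGB2OE, so the groups overlapped (−0.01, adjusted p = 0.964), and its sign turned under library totals, GC offsets and 3 of the fits leaving out a library. The highest distal peak, 49.8 kb upstream, also overlapped between groups, at means of 912 and 962.

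**Figure D2:**
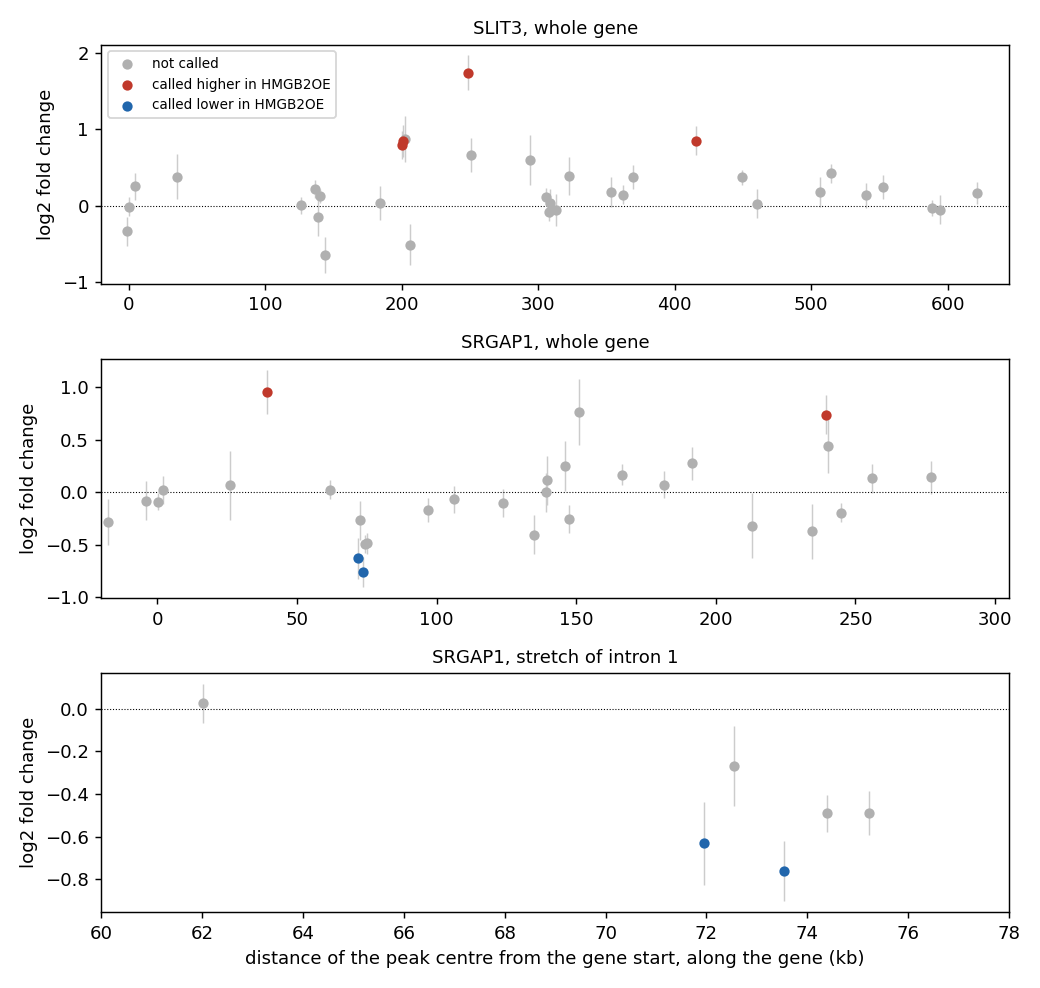
Log2 fold change of HMGB2OE over EV (y axis, bars show the SE) against distance from the gene start in kb (x axis) for peaks of SLIT3, of SRGAP1 and of a stretch of SRGAP1 intron 1. The 4 called SLIT3 peaks lie between 200.2 and 416 kb, and 5 neighbouring SRGAP1 peaks between 71.9 and 75.2 kb lie below 0.

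The sequence is shown for the 3 called peaks of lowest adjusted p. Each line gives 200 bases of hg38, plus strand, around a match to one of 5 short words searched on both strands: TGACTCA (AP-1), CACGTG (E-box), ACAAAGG (SOX), ATCAAAG (TCF) and GGAATG (TEAD). The SOX and TCF words have the letters CAAAG in common, and capitals mark a match or its reverse complement. The lines are SLIT3 intron 4 (chr5:169052215-169052414, higher), SRGAP1 intron 1 (chr12:63917344-63917543, lower) and SRGAP3 (chr3:9280082-9280281, higher).
SLIT3 intron 4 peak: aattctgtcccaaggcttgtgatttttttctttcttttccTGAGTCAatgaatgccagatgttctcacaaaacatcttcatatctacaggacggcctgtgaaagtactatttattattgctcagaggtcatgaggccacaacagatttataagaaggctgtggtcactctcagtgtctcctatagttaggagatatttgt
SRGAP1 intron 1 peak: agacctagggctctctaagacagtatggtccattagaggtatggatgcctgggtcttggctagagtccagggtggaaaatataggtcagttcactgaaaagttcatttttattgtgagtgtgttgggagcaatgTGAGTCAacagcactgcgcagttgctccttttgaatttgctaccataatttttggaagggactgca
SRGAP3 peak: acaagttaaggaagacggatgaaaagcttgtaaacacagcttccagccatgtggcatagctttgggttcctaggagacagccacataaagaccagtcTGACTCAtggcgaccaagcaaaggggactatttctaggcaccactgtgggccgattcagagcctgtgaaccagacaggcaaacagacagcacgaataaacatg
The SLIT3, SRGAP1 and SRGAP3 stretches each held the AP-1 word, but each stretch was placed around a match. The next 3 called peaks by adjusted p held no AP-1 word. They are chr3:79174387-79174888 of ROBO1, chr12:63882715-63883216 of SRGAP1 and chr5:168885307-168885808 of SLIT3. A match describes the letters and does not show that a factor bound there. The AP-1 word stood in 96 of the 276 peaks (34.8%), beside 28.0% of all tested peaks of this width. Among called peaks it stood in 4 of the 12 higher members, beside 35.9% of all higher peaks, and in 2 of the 4 lower members, beside 34.2% of all lower peaks. The TCF word stood in 33 members (12.0%, beside 6.85%), the SOX word in 42 (15.2%, beside 12.1%), the TEAD word in 81 (29.3%, beside 29.0%) and the E-box in 12 (4.35%, beside 6.85%). The median GC content was 41.6% in member peaks and 46.2% in all tested peaks, and its part in these shares was not tested.

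SLIT2 encodes the ligand most studied for the repulsion of axons and of tumour cells. Its gene covers 369 kb of chromosome 4, and 24 of its 39 peaks lie upstream, in a long stretch with no protein-coding gene. The called peak, chr4:19945957-19946458, is 306 kb upstream. It held 40.3, 43.9 and 53.8 in EV and 69.7, 95.1 and 101 in HMGB2OE. EV and HMGB2OE libraries did not overlap (log2 fold change 0.94, SE 0.22, adjusted p = 0.00826), and the call held in all fits. The SLIT2 peak with the lowest p went the other way. It lies 57.2 kb upstream, at chr4:20194496-20194997, and fell from 349, 365 and 302 in EV to 232, 251 and 209 in HMGB2OE (log2 fold change −0.55, SE 0.12, adjusted p = 0.00409), a change past the p threshold but short of the fold of 1.5. The most accessible SLIT2 peak was not at the promoter but 476 kb upstream. Its counts were 1751, 1986 and 1939 in EV and 2144, 2041 and 2146 in HMGB2OE, without overlap, and it did not pass the test (0.16, adjusted p = 0.221), except under the loess trend (0.22, adjusted p = 0.00928). The promoter peak, centred 24 bp from the start, held 460, 552 and 566 in EV and 478, 530 and 498 in HMGB2OE (−0.07, adjusted p = 0.739).

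SLIT1 encodes a ligand mainly known from the brain. It was the member with no peak within 3 kb of its start, and the nearest peak of the atlas lay 10.4 kb away, inside the read-through gene ARHGAP19-SLIT1. All 11 SLIT1 peaks lay in the gene body and 0 were called. A count of 0 in 11 peaks is near the shares of 1.87% called higher and 1.44% called lower over all tested peaks. DESeq2 also called 0 at an adjusted p under 0.05 and a fold of at least 1.5. At an unadjusted p under 0.05 in edgeR 2 were higher and 2 lower. The lowest p belonged to chr10:97140284-97140785 in intron 4, which held 174, 238 and 228 in EV and 302, 302 and 337 in HMGB2OE. Here too there was no overlap, and the difference passed the p threshold but not the fold limit (log2 fold change 0.54, SE 0.12, adjusted p = 0.00760). The highest SLIT1 peak, at intron 22 and with 69 coding bases, held means of 648 and 663 and its groups overlapped.

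The 250 bases before the RefSeq start (GRCh38.p14) of SLIT1, where no peak was found, and of SLIT2, where the promoter peak lies, are shown side by side because the ligands differ in this respect. They are chr10:97185960-97186209 on the minus strand and chr4:20251655-20251904 on the plus strand.
SLIT1 promoter: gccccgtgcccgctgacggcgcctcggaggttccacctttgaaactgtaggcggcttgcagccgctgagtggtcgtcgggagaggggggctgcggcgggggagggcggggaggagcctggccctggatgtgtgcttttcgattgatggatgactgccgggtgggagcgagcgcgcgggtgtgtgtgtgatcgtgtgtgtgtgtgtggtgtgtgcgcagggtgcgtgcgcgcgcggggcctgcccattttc
SLIT2 promoter: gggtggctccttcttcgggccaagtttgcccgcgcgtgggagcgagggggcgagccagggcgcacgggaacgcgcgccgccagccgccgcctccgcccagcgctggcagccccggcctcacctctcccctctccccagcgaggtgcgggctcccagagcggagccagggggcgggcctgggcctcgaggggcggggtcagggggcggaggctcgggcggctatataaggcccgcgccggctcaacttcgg
Both are rich in G and C, at 68.4% with 25 CpG dinucleotides for SLIT1 and 77.2% with 30 for SLIT2. None of the 5 words was found in either window. Of all 35116 RefSeq promoter windows of this length, 4.20% hold the AP-1 word, 6.34% the E-box, 4.45% the SOX word, 2.26% the TCF word and 11.9% the TEAD word.

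Among the receptors, 3 of 141 peaks were called higher (2.13%, beside 1.87% of all tested peaks) and 2 lower (1.42%, beside 1.44%), shares near the background, and their median log2 fold change was −0.0032.

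ROBO1 encodes the most widely expressed SLIT receptor, and its gene covers 1171 kb of chromosome 3. Its 68 peaks had a median log2 fold change of 0.0034, with 34 above 0. The larger decrease was in intron 2, where counts were 70.9, 70.6 and 50.3 in EV and 22.1, 31.7 and 24.8 in HMGB2OE. HMGB2OE held 0.412 of the EV level, with no overlap (log2 fold change −1.28, SE 0.27, adjusted p = 0.00404), and this call held in all fits. The other lower peak, chr3:78086189-78086690, lies between genes beyond the 3′ end, 1682 kb from the start and within 3 kb of the start of the non-coding gene ENSG00000240573. It held 72.3, 52.5 and 43.3 in EV and 20.4, 25.0 and 29.3 in HMGB2OE (−1.17, SE 0.29, adjusted p = 0.0147). It missed the threshold without EV replicate 1 (−0.96, adjusted p = 0.0820) or HMGB2OE replicate 1 (−1.04, adjusted p = 0.0802).

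A ROBO1 peak 518 kb upstream, chr3:80285349-80285850, was called higher. Its counts were 70.9, 71.4 and 88.9 in EV and 108, 113 and 140 in HMGB2OE (log2 fold change 0.64, SE 0.18, adjusted p = 0.0257). There was no overlap, but this call was lost with DESeq2 (adjusted p = 0.0546) and without EV replicate 1 (0.0728), EV replicate 2 (0.113), HMGB2OE replicate 2 (0.0531) or HMGB2OE replicate 3 (0.127). ROBO1 has several start sites, and its most accessible promoter peak was at an internal one, 749 kb into the gene. That peak held 974, 977 and 891 in EV and 883, 945 and 850 in HMGB2OE, with overlap (−0.08, adjusted p = 0.612). The peak near the outermost start, chosen here after its values were seen, was less accessible, at 195, 176 and 161 in EV and 211, 263 and 220 in HMGB2OE. Its groups did not overlap and it did not pass the test (0.39, adjusted p = 0.0719). The highest distal peak, 422 kb upstream, held means of 812 and 683 (−0.25, adjusted p = 0.0863).

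ROBO2, a receptor with large roles in axon guidance and kidney development, has the longest of these genes, at 1743 kb, and 33 of its 61 peaks lie in the outer part that the canonical transcript does not cover. Its 2 called peaks were both higher. In intron 4, chr3:77489167-77489668 held 115, 113 and 105 in EV and 170, 160 and 173 in HMGB2OE. No library overlapped the other group and the fold was just past the limit, at 1.51 (log2 fold change 0.59, SE 0.14, adjusted p = 0.0104). Without EV replicate 3, HMGB2OE replicate 1 or HMGB2OE replicate 3 the fold fell under 1.5 (log2 fold changes of 0.556, 0.583 and 0.572). Over all fits leaving out a library the log2 fold change was 0.56 to 0.63 and the adjusted p stayed at 0.0481 or less. With a loess trend the fold was also under the limit (0.57). The second, chr3:77815537-77816038, lies between genes, 1909 kb from the start. It rose from 45.9, 26.7 and 38.6 in EV to 68.9, 62.6 and 77.7 in HMGB2OE (0.94, SE 0.25, adjusted p = 0.0200), and missed the threshold without EV replicate 2 (0.72, adjusted p = 0.132), HMGB2OE replicate 1 (0.94, adjusted p = 0.0700) or HMGB2OE replicate 3 (0.86, adjusted p = 0.0844). The promoter peak at the canonical start held means of 347 ± 24.4 and 347 ± 11.9 (SD, n = 3), with a log2 fold change of −0.0032 whose sign depended on the scaling. The highest distal peak, 1919 kb from the gene start, held means of 857 and 967 with overlapping groups.

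ROBO3, a receptor of commissural axons that does not act as a simple SLIT receptor in mammals, and ROBO4, the receptor of endothelial cells, are neighbours on chromosome 11. ROBO3 had 8 peaks and ROBO4 had 4, and 0 of them were called by edgeR. In so few peaks a count of 0 is near the shares of 1.87% called higher and 1.44% called lower over all tested peaks. DESeq2 also called 0 at an adjusted p under 0.05 and a fold of at least 1.5. Under DESeq2 the ROBO4 promoter peak passed the p limit alone (adjusted p = 0.0224). At an unadjusted p under 0.05 in edgeR, 1 peak was lower for each gene and 0 were higher. For ROBO3 this was a weak peak 24.0 kb upstream, at 59.8, 44.7 and 51.5 in EV and 35.7, 35.9 and 33.8 in HMGB2OE (log2 fold change −0.55, adjusted p = 0.229). The highest ROBO3 promoter peak was at an internal start, 11.1 kb into the gene over intron 17 and 160 coding bases. It held 1575, 1663 and 1741 in EV and 1629, 1616 and 1599 in HMGB2OE, with overlap (−0.04, adjusted p = 0.812). The most accessible distal ROBO3 peak, 28.4 kb upstream, held means of 291 and 287.

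The ROBO4 promoter peak was the one promoter peak of these genes past an adjusted p of 0.05. At chr11:124898196-124898697, 0.054 kb from the gene start, it held 1236, 1481 and 1547 in EV and 1173, 1147 and 1152 in HMGB2OE. All HMGB2OE libraries lay below all EV libraries, at 0.813 of the EV level (log2 fold change −0.30, SE 0.083, adjusted p = 0.0272), which is short of the fold limit. Among the fits without 1 library, it kept an adjusted p under 0.05 only without EV replicate 1 (0.00153), while leaving out EV replicate 2, EV replicate 3 or any HMGB2OE library gave 0.0693 to 0.121. The defining endothelial promoters were low or without a peak, as given above.

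The SRGAP genes had 4 of 48 peaks called higher (8.33%, beside 1.87% of all tested peaks) and 2 lower (4.17%, beside 1.44%). Their median log2 fold change was 0.07. SRGAP1 encodes a GTPase-activating protein that acts on Cdc42 downstream of ROBO1. Its gene, 318 kb of chromosome 12, had 2 peaks called in each direction and more peaks below 0 than above, with 14 of 31 above 0. The decreases lay together in intron 1, between 71.9 and 75.2 kb from the gene start, over the most accessible distal site of the gene. At chr12:63917042-63917543 counts fell from 254, 218 and 183 in EV to 132, 118 and 136 in HMGB2OE (log2 fold change −0.76, SE 0.14, adjusted p = 0.00118). The groups did not overlap, and this call held in all fits. Next to it, chr12:63917893-63918394 held 976, 977 and 937 in EV and 724, 710 and 618 in HMGB2OE (−0.49, SE 0.086, adjusted p = 0.000678), a change past the p threshold in every fit and short of the fold limit.

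The other called peak of this stretch, chr12:63915459-63915960, was the least stable call. It held 154, 98.1 and 92.4 in EV and 79.9, 74.2 and 64.2 in HMGB2OE (log2 fold change −0.63, SE 0.19, adjusted p = 0.0468). It was lost in 8 of 15 alternative fits, among them those without EV replicate 1 (−0.38, adjusted p = 0.287), HMGB2OE replicate 1 (0.0846), HMGB2OE replicate 2 (0.104) or HMGB2OE replicate 3 (0.146). A further peak, chr12:63918740-63919241, chosen after its values were seen, held 670, 754 and 748 in EV and 604, 494 and 448 in HMGB2OE (−0.49, SE 0.10, adjusted p = 0.00324). Of the 6 tested peaks within 10 kb of the least stable one, itself included, 5 were below 0 and 4 of these passed the p threshold. Neighbouring peaks of one site share a region and are not independent measurements.

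Both higher peaks of SRGAP1 lay apart from that stretch. In the same intron but 39.2 kb from the start, chr12:63882715-63883216 held 52.8, 53.3 and 38.6 in EV and 102, 80.1 and 100.2 in HMGB2OE (log2 fold change 0.95, SE 0.21, adjusted p = 0.00510). The groups did not overlap, and the call held in all fits. In intron 10, chr12:64082964-64083465 held 57.0, 101 and 73.7 in EV and 149, 117 and 129 in HMGB2OE (0.74, SE 0.18, adjusted p = 0.0133). It missed the threshold without EV replicate 1 (0.58, adjusted p = 0.0686) or HMGB2OE replicate 1 (0.64, adjusted p = 0.0953). The protein-coding start nearest to it is that of KICS2, so under nearest-start assignment it is not counted for SRGAP1. The SRGAP1 promoter peak, 141 bp from a start, had the highest EV mean of all peaks of the 9 genes, at 1832, 2299 and 2129 in EV and 1970, 1955 and 1962 in HMGB2OE. Its groups overlapped (−0.09, adjusted p = 0.554).

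SRGAP3, also called WRP and best known in neurons, is a GTPase-activating protein for Rac1. Of its 17 peaks, all in the gene body, 15 had a log2 fold change above 0, with a median of 0.14 beside 0.0049 for the 281 other peaks within 2 Mb. At chr3:9279902-9280403, upstream of the canonical start and inside the outer part of the gene, counts were 156, 151 and 184 in EV and 255, 239 and 247 in HMGB2OE. The groups did not overlap (log2 fold change 0.60, SE 0.13, adjusted p = 0.00388). The adjusted p stayed at 0.0323 or less in all fits leaving out a library, but the fold of 1.51 fell under the limit without EV replicate 1, EV replicate 2 or HMGB2OE replicate 1, and with GC offsets or a loess trend. In intron 1, chr3:9183860-9184361 held 79.2, 66.2 and 73.7 in EV and 122, 113 and 125 in HMGB2OE (0.72, SE 0.17, adjusted p = 0.00913). It missed the threshold without EV replicate 2 (0.65, adjusted p = 0.0592). The promoter peak at the canonical start, which also lies near the start of the antisense gene SRGAP3-AS4, held means of 995 and 1026 (0.04, adjusted p = 0.824). The highest distal peak, 22.4 kb into the gene, held means of 350.3 and 358 (0.03, adjusted p = 0.903), so neither of these prominent sites passed the test.

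**Figure D3:**
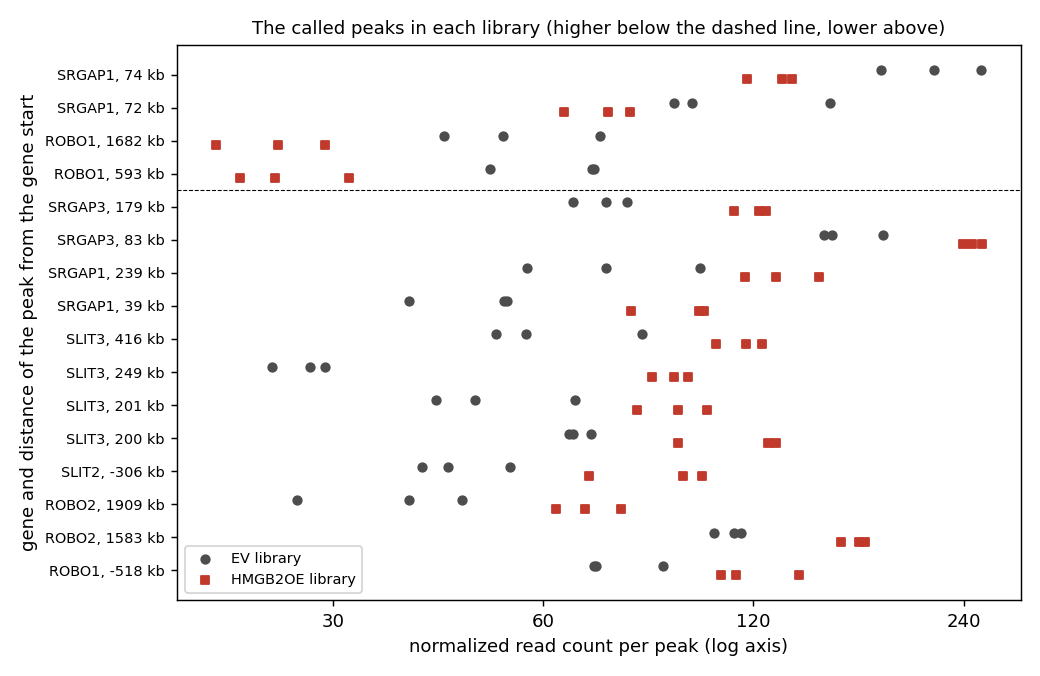
Normalized read count per peak (x axis, log scale) of the 16 called peaks in each of the 6 libraries, labelled by gene and by distance from the gene start in kb (negative is upstream), circles for EV and squares for HMGB2OE. The 12 higher peaks are below the dashed line and the 4 lower peaks above it. In each of the 16 the EV and HMGB2OE libraries do not overlap, as in 98.25% of all tested peaks called higher and 98.15% of those called lower.

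The reads of all peaks of a gene were then summed, so that each library gave 1 value per gene, and tested over 18341 protein-coding genes, where 5.83% rose and 3.42% fell past an adjusted p of 0.05. Of the 9 genes, 2 passed, both higher. SLIT3 held sums of 6471, 6610 and 7446 in EV and 7998, 7820 and 7787 in HMGB2OE. The groups did not overlap (log2 fold change 0.20, SE 0.046, adjusted p = 0.0109), and the adjusted p was above the threshold without EV replicate 2 (0.0987) or HMGB2OE replicate 1 (0.0685). SRGAP3 held 3310, 3234 and 3614 in EV and 3779, 3730 and 4012 in HMGB2OE, also without overlap (0.18, SE 0.047, adjusted p = 0.0216). It missed the threshold without EV replicate 1 (0.0684), EV replicate 2 (0.161), HMGB2OE replicate 1 (0.0669) or HMGB2OE replicate 3 (0.103). The SRGAP3 value also rested on how peaks were assigned. When each peak went to the gene with the nearest protein-coding start, 14 of the 17 went to THUMPD3 and 3 to RAD18. SRGAP3 then held only the peak over its outermost start, which lies in the body of THUMPD3 and is not one of the 17, at a log2 fold change of −0.05 (adjusted p = 0.641).

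The other 7 genes did not pass on summed counts. ROBO4 held 2172, 2613 and 2680 in EV and 2220, 2258 and 2103 in HMGB2OE (log2 fold change −0.18, SE 0.062, adjusted p = 0.0680), and its groups overlapped through EV replicate 1, without which it passed (−0.27, adjusted p = 0.00361). SRGAP1 held 8375, 8585 and 8131 in EV and 8069, 7794 and 7582 in HMGB2OE, without overlap (−0.10, SE 0.038, adjusted p = 0.117), and it passed with a loess trend (−0.11, adjusted p = 0.0468), under nearest-start assignment (−0.13, adjusted p = 0.0465) and with GC offsets and the replicate block (−0.10, adjusted p = 0.0499). SLIT2 held 7800, 7673 and 7558 in EV and 7966, 8201 and 7962 in HMGB2OE, without overlap (0.07, adjusted p = 0.255). The sums of SLIT1 (0.07, adjusted p = 0.383), ROBO2 (0.04, adjusted p = 0.508), ROBO1 (0.03, adjusted p = 0.713) and ROBO3 (−0.02, adjusted p = 0.771) were within 0.08 of 0 on the log2 scale.

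**Figure D4:**
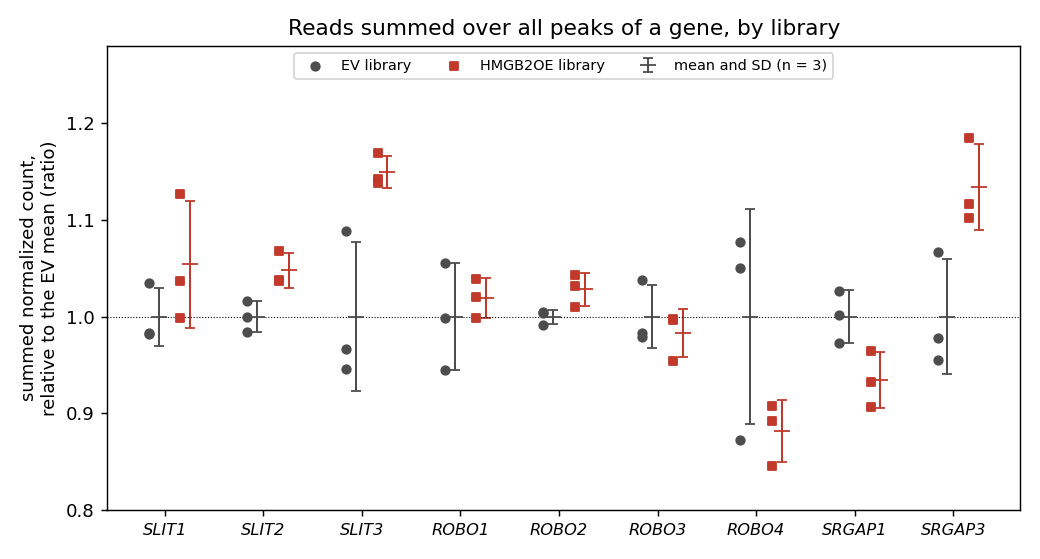
Summed normalized count of all peaks of a gene in each library, divided by the gene's EV mean (y axis, ratio), for the 9 genes (x axis), with circles for EV, squares for HMGB2OE and bars for the mean and SD of 3 libraries. SLIT2, SLIT3, ROBO2 and SRGAP3 have all HMGB2OE libraries above all EV libraries, SRGAP1 has them all below, and in ROBO4 1 EV library lies among the HMGB2OE libraries. Of these only SLIT3 and SRGAP3 passed the test on summed counts. The share of all genes with such separation is not given here.

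The promoters of the 9 genes differed more from one another than between conditions. The highest promoter peak of each gene, all of the same width, ran in EV from 2086 ± 236 (SD, n = 3) for SRGAP1 through ROBO3 (1660 ± 83.4), ROBO4 (1421 ± 164), SRGAP3 (995 ± 91.2), ROBO1 (947 ± 49.0), SLIT2 (526 ± 57.6) and ROBO2 (347 ± 24.4) to SLIT3 (270 ± 35.4), with no promoter peak for SLIT1. The EV ranges of SRGAP3 and ROBO1 overlapped, and the other neighbours in this order did not overlap. SRGAP1 stood above 99.3% of all tested peaks and SLIT3 above 75.7%.

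**Figure D5:**
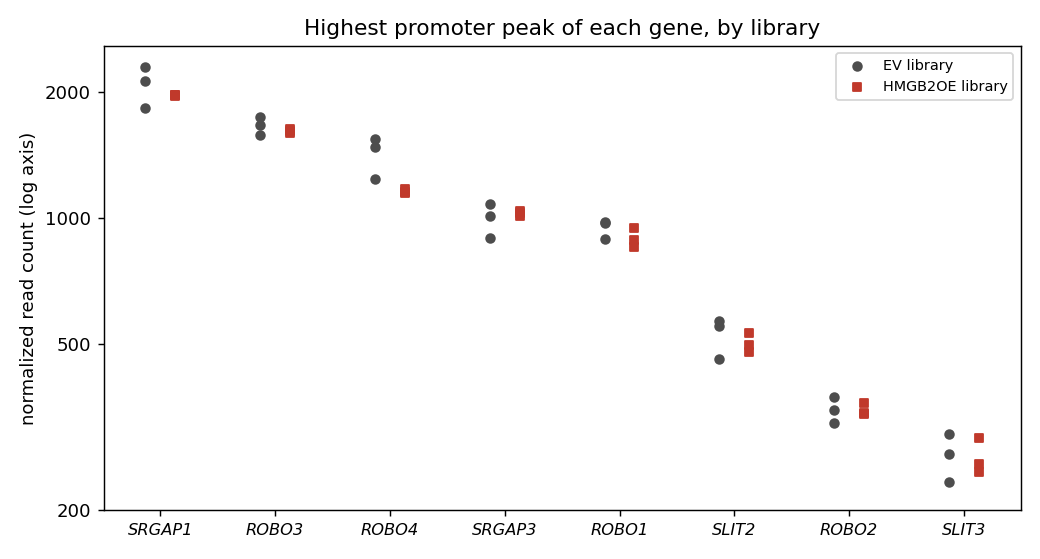
Normalized read count (y axis, log scale) of the highest promoter peak of each gene in the 3 EV (circles) and 3 HMGB2OE (squares) libraries, genes ordered by EV mean (x axis). The levels fall from about 2086 for SRGAP1 to about 270 for SLIT3, and the groups overlap for each gene but ROBO4. SLIT1 has no promoter peak and is not drawn.

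Genes known to work with SLIT and ROBO proteins were read as a list of 41, chosen by function with earlier results of these data known. Of their 460 tested peaks 10 were called higher (2.17%, beside 1.87% of all tested peaks) and 8 lower (1.74%, beside 1.44%), shares near the background, with a median log2 fold change of −0.02 and 11 genes holding a called peak. The co-receptors and other ligands had 7 of the higher peaks and 2 of the lower among 169 (4.14% and 1.18%). The cytoplasmic effectors had 3 and 5 among 238 (1.26% and 2.10%), and the genes for processing and turnover 0 and 1 among 53 (0% and 1.89%). Of these 53, 1 was higher at an unadjusted p under 0.05 in edgeR. DESeq2 called 0 of them higher at an adjusted p under 0.05 and a fold of at least 1.5. On summed counts 2 of the 41 genes were higher and 3 lower, beside 5.83% and 3.42% of all genes.

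CXCL12, the chemokine whose attraction of cells SLIT signalling is known to oppose, had the largest rise of the list. Its summed counts were 1590, 1609 and 1671 in EV and 2289, 2305 and 2179 in HMGB2OE, 1.39-fold higher without overlap (log2 fold change 0.48, SE 0.046, adjusted p = 1.18e-05). Of its 10 peaks, 4 were called higher, beside 1.87% of all tested peaks. One of these, 66.3 kb from the nearest start at chr10:44195256-44195757, held 117, 102 and 118 in EV and 204, 191 and 230 in HMGB2OE (0.90, adjusted p = 0.000199). Another, at chr10:44278888-44279389, held 126, 104 and 133 in EV and 211, 204 and 190 in HMGB2OE (0.75, adjusted p = 0.00135). NELL2, a secreted ligand of ROBO3, was also higher on its sum (0.22, adjusted p = 0.00849), at means of 2558 and 2977, and missed the threshold without EV replicate 2 (0.19, adjusted p = 0.0813). The CXCL12 sum and both of its peaks passed in every fit run.

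The 3 genes lower on summed counts encode cytoplasmic proteins. CAP1, an actin regulator, was lower on its sum (log2 fold change −0.16, adjusted p = 0.0195) and at the peak chr1:40015192-40015693, which held 482, 619 and 571 in EV and 356, 359 and 316 in HMGB2OE (−0.70, adjusted p = 0.000136). The peak passed in every fit run, and the sum missed the threshold without EV replicate 2 (adjusted p = 0.0912), HMGB2OE replicate 1 (0.0972) or HMGB2OE replicate 3 (0.0626). NEDD4, a ubiquitin ligase, was lower on its sum (−0.14, adjusted p = 0.0402), as was the kinase gene ABL2 (−0.12, adjusted p = 0.0456), named here after its values were seen. The NEDD4 sum missed the threshold in every fit without 1 library (adjusted p of 0.0607 to 0.168) but that without EV replicate 3, and so did the ABL2 sum (0.0662 to 0.180). Under nearest-start assignment the ABL2 sum was −0.03 (adjusted p = 0.636). DCC, the netrin receptor that ROBO1 can silence, had 1 peak called in each direction. Its peak chr18:52237524-52238025 held 434, 615 and 503 in EV and 312, 303 and 259 in HMGB2OE, without overlap (−0.83, adjusted p = 6.21e-05), and this peak passed in every fit run. The DCC sum did not pass (−0.15, adjusted p = 0.0506), except under library totals, GC offsets, the replicate block or both, and without EV replicate 1, at adjusted p of 0.0246 to 0.0401.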

How the data were processed

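ATAC-seq libraries of A375 cells, 3 EV and 3 HMGB2OE, were grouped by the labels. Per the labels and the study's methods, the authors used Trim Galore 0.6.7, cutadapt 4.0 and FastQC 0.12.1 on the reads and Bowtie 2 for alignment to hg38. Picard took out duplicates. Peaks came from MACS2, with public melanocyte data as the control, and after removal of blacklisted regions they were joined into 1 atlas. The deposited values are raw counts of reads per peak and library from featureCounts, with no normalization by the authors. Any shift for Tn5 cutting, the treatment of reads with several alignments, and whether peaks were called per library are not given in the sources used here, and these choices could alter which weak or repeated regions are listed.

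Counts were tested with edgeR 4.0.16 in R 4.3.3 (TMM scaling, filterByExpr, quasi-likelihood F test, Benjamini-Hochberg adjustment over all tested peaks). The SE is the log2 fold change divided by the root of F. Counts summed over a gene's peaks were fitted over all genes, with a call at an adjusted p under 0.05 and no fold limit. DESeq2 1.42.0, other scalings, filters, GC offsets, a replicate block, other fold limits, nearest-start assignment and fits without each library were alternatives. The study's methods name DESeq2's Wald test, which is an alternative here. The steps were tested on simulated data.

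Named were, per gene, the highest promoter and distal peaks, the lowest p, all called peaks and the summed counts, and of the partners at most 4 genes and 4 peaks of lowest p. The members and lists were chosen with earlier results of these data known. Promoter sequences are from RefSeq, which matched all 9 genes, and peak sequences from hg38. Library totals bound the precision, and replicates differed by more than counting noise, with a chi-square of 2.50 to 4.66 per degree of freedom.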

Additional observations from a re-analysis of the deposited data

How the results depend on the processing

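The median log2 fold change of the member peaks was 0.07 with GC offsets (0.0694) and with GC offsets and the replicate block (0.0663), 0.0052 when centred on 10 Mb windows, and 0.0115 to 0.0663 when 1 library was left out. Member peaks called higher numbered 20 without a fold limit, 20 at the lower fold limit tried and 7 to 13 without 1 library. Those called lower numbered 9, 8 and 2 to 6 in the same order. Under nearest-start assignment 8 were higher and 4 lower. Member genes called on summed counts numbered 4 with GC offsets and the replicate block (SLIT3, SRGAP3, ROBO4 and SRGAP1), and 0 to 2 without 1 library. Partner peaks called higher numbered 6 to 10 without 1 library, and those called lower 5 with DESeq2, 22 without a fold limit, 19 at the lower fold limit and 5 to 7 without 1 library. The cause of these differences was not tested.

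Signs turned for values close to 0. The ROBO2 promoter peak was 0.02 under library totals (0.018), 0.0014 with DESeq2 size factors, 0.0085 with a loess trend, 0.0013 with DESeq2, 0.049 with GC offsets, 0.050 with GC offsets and the block, and −0.054 to 0.054 without 1 library. The SLIT3 promoter peak was 0.0088 under library totals, 0.037 with GC offsets, 0.046 with GC offsets and the block and −0.10 to 0.074 without 1 library. The ROBO3 promoter peak was 0.020 with a loess trend, 0.012 with GC offsets and 0.013 with GC offsets and the block. The highest distal ROBO3 peak was 0.0050 under library totals and −0.12 to 0.11 without 1 library. The SRGAP3 promoter peak was −0.0086 with GC offsets, −0.0055 with GC offsets and the block and −0.022 to 0.100 without 1 library. Without 1 library the ranges were −0.017 to 0.062 for the highest SLIT1 peak, −0.00037 to 0.059 for the highest distal SRGAP3 peak, −0.0086 to 0.067 for the ROBO1 sum and −0.041 to 0.0010 for the ROBO3 sum. The SRGAP3 sum was −0.054 under nearest-start assignment. Of 825 comparisons of a named peak or sum with an alternative, 734 kept their sign and their side of the adjusted p threshold, with crossings of the fold limit not counted.

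The labels share replicate numbers, and 3 libraries per condition cannot settle whether the numbers mark pairs. Deviations of same-numbered libraries correlated at −0.0903, 0.199 and 0.132. EV replicates 2 and 3 each correlated best with the HMGB2OE library of the same number, whereas EV replicate 1 correlated best with HMGB2OE replicate 3. With the replicate block 14 member peaks were called higher and 5 lower, and the ROBO4 sum passed (−0.18, adjusted p = 0.0312), which made 3 genes on summed counts.

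Low counts at the weakest peaks, down to 9 reads in a library, limit small differences, and 3 technical libraries per condition do not measure variation between independently made lines.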
